A study of Mus musculus with 24 samples.

Results

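The metallothionein genes Mt1 and Mt2 and 3 metal transporter genes of the liver, Slc39a14, Slc30a1 and Slc30a10, were followed in messenger RNA of 24 mouse livers, 1 library per mouse. They are 5 of the 27802 genes in the deposited count tables, were matched by gene name, and all 5 passed the filter on low counts that left 20213 genes for testing. They were chosen by measured values, the differences of Mt1 between ablated and control mice at 22 °C and between control females and males, so values from those contrasts are given here as descriptions, with no test. Adult mice that carry Cre from an Agtr1a (AT1R) transgene received an adeno-associated virus with a Cre-activated caspase 3 in the arcuate nucleus, which removes the AgRP neurons bearing this angiotensin receptor. The injection given to controls is not stated in the labels. Mice lived at 22 °C or at 30 °C from surgery on, ate Teklad chow freely, and gave their livers 2 weeks later.

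Each sex and condition was represented by 3 mice at 22 °C, all 12 labelled Ai39 x BAC-AT1A-Cre (Halo+/-). Controls at 30 °C comprised 2 males and 4 females, and ablated mice 3 of each sex. Of the 6 ablated mice at 30 °C, 3 were Ai39 x BAC-AT1A-Cre, 2 were Ai9 x BAC-AT1A-Cre (male 2 and female 3) and 1 was BAC-AT1A-Cre (male 3). Of the 6 controls at 30 °C, 4 were Ai39 x BAC-AT1A-Cre and 2 were BAC-AT1A-Cre (male 1 and female 3). All 12 ablated mice carried Cre. Of the controls, male 1 at 22 °C and both males and female 4 at 30 °C carried it, so line and Cre are partly mixed with temperature and sex. Whether replicates came from separate litters or days is not given.

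Metallothioneins are small, cysteine-rich proteins that bind zinc and copper and take up cadmium, and hepatocytes are among the cells that make most of them. Their genes are switched on by the zinc-sensing transcription factor MTF1 at short promoter sequences called metal response elements, and also by glucocorticoids and inflammatory cytokines. Zinc enters the hepatocyte through ZIP proteins such as ZIP14 (Slc39a14) and leaves the cytosol through ZnT proteins such as ZnT1 (Slc30a1), while ZnT10 (Slc30a10) exports manganese.

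The promoters are shown because MTF1 binding is the textbook link between Mt1, Mt2 and Slc30a1, and Slc30a10 is set beside them as the transporter with the largest difference at 22 °C. RefSeq promoter sequences were matched for 4 of the 5 genes; Slc39a14 was not matched. Each line gives the 250 bases before the annotated start on the plus strand of GRCm38.p6, at chr8:94178839-94179088 for Mt1, chr8:94172368-94172617 for Mt2, chr1:191906531-191906780 for Slc30a1 and chr1:185454598-185454847 for Slc30a10. Capitals mark the metal response element core, searched as TGCACNC or TGCGCNC on both strands.
Mt1: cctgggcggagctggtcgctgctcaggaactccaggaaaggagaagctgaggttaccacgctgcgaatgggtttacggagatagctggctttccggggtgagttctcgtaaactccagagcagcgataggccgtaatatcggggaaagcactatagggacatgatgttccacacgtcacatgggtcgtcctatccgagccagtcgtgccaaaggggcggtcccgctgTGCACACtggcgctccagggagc
Mt2: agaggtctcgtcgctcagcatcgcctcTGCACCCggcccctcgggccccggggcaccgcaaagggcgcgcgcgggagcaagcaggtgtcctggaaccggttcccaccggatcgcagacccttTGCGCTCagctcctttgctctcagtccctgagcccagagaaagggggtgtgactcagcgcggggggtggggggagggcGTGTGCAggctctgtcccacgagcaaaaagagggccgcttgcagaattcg
Slc30a1: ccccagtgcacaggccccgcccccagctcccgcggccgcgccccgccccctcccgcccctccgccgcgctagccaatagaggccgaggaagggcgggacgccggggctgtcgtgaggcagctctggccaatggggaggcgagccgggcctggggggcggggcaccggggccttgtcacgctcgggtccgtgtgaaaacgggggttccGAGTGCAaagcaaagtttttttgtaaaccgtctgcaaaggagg
Slc30a10: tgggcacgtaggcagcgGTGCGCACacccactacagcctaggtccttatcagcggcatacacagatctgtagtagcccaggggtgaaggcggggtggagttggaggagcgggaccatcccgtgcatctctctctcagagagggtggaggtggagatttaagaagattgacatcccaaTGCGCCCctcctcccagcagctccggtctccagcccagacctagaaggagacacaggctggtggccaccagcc
Mt1 and Slc30a1 each held 1 core in this window, and Mt2 and Slc30a10 each held 3, of which a pair in Slc30a10 overlap on opposite strands. Of 32851 promoter windows of the same length, 21.41% held at least 1 core and 1.263% held at least 3. With the 50 bases after the start included, Mt1 held 3, Mt2 4, Slc30a1 2 and Slc30a10 3, against 1.969% of windows with at least 3. An antioxidant response element core, TGACNNNGC on either strand, was found once each in the windows of Mt2 and Slc30a1 and in 10.16% of all windows. None of the 4 windows held the short glucocorticoid receptor motif AGAACA, which 16.08% of windows did, nor the letters TATAAA, found in 12.37%. The antioxidant, AGAACA and TATAAA motifs were not searched after the annotated start, where 2 of the 3 Mt1 cores lay. Their absence therefore holds only for the 250 bases before that start. These are matches of letters and not measured sites.

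Mt2 and Mt1 lie in this order on the plus strand of mouse chromosome 8. In the deposited coordinates (GRCm39) Mt2 spans chr8:94899292-94900196 and Mt1 chr8:94905710-94906955, 5514 bases apart. The long non-coding RNA gene Gm45774 runs on the opposite strand at chr8:94897376-94900040 and covers 749 bases of Mt2. In the GENCODE M21 gene models, on GRCm38, 432 of the 588 exon bases of Mt2 (73.47%) lie under Gm45774 and none of Mt1 do. Whether reads were counted by strand is not given, so reads of Mt2 and Gm45774 cannot be told apart and the level of Mt2 is uncertain. Slc30a1 (chr1:191638879-191645359) and Slc30a10 (chr1:185187045-185200959) are overlapped by the long non-coding RNA genes 1700034H15Rik over 761 bases and Gm2061 over 721 bases, a small part of each. Slc39a14 lies on the minus strand at chr14:70540918-70588874.

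**Figure D1:**
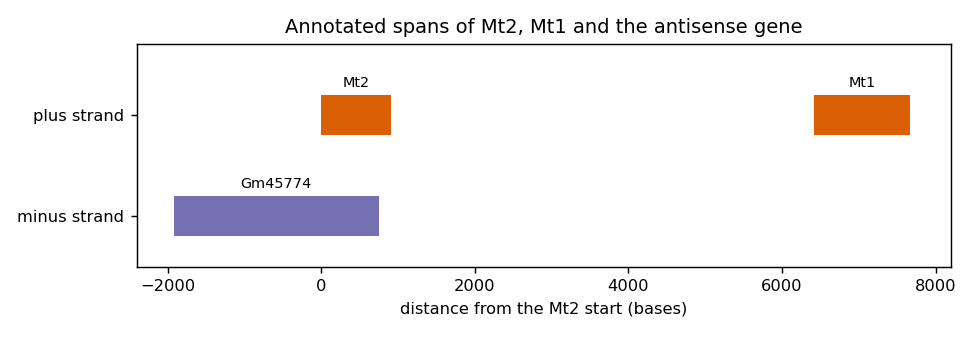
Annotated spans of Mt2, Mt1 and the antisense gene Gm45774, by strand, with distance from the Mt2 start in bases on the horizontal axis. Gm45774 covers 749 bases of the Mt2 span and ends before Mt1.

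Depth ranged from 21691653 to 34851108 reads in genes per library, and mitochondrial genes took 7.532% to 37.262% of them. Libraries of 1 group differed far beyond counting error (chi-square per degree of freedom 27.3 to 421). The library of 30 °C control male 1 stood apart, with 13601 genes at 10 or more reads against at least 14898 in the others. Some values that move without it by over 1.5 times are given beside their results, and others only within ranges over the alternatives. Summed hepatocyte markers (Alb, Apoa1, Ttr, Cps1, Cyp2e1, Hnf4a) stood at 63031 to 104510 CPM (counts per library scaled to a common size) in all libraries. Of 35 tested markers of other liver, blood, fat, pancreas and muscle cells, 0 were called in any of the 10 comparisons (edgeR), at an adjusted p under 0.05. Of the 6 hepatocyte markers, Apoa1 was called lower in females among ablated mice, by -0.66 ± 0.16 on the log2 scale (adjusted p = 0.0206). In bulk tissue, fewer cells of a type and less RNA per cell cannot be told apart.

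By length-scaled level, Mt1 was far above the other genes. The deposited FPKM, which scales reads by gene length and depth, had a median over 24 libraries of 806 for Mt1, 18.7 for Slc39a14, 14.7 for Mt2, 6.74 for Slc30a10 and 4.06 for Slc30a1. Among 28 zinc-handling genes these held positions 1, 2, 3, 6 and 10 by median FPKM. Mt1 had 1146 to 105217 reads per library, and ranked between position 25 and position 2310 of all genes by count. In the 21 libraries with at least 20 reads of Mt2, the FPKM of Mt1 was 23.8 to 81.6 times that of Mt2, with a median of 43.9. This ratio carries the uncertainty in Mt2 from the antisense gene, whose own counts ran from 0 to 617 and were at least those of Mt2 in 3 libraries, all of control males at 22 °C.

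Mt1 was lowest in control males at 22 °C. Their 3 libraries read 58.1, 56.5 and 55.3 CPM, of which the first carried Cre. Ablated males at 22 °C read 463, 554 and 544 CPM, so the groups did not overlap and the mean was 9.19-fold higher. Summed muscle markers were highest of all libraries in control male 1, at 19.3 CPM, and its Mt1 level was 58.1 CPM. Any link of these markers to Mt1 was not tested. Control females at 22 °C read 465, 1113 and 1767 CPM and ablated females 2043, 2207 and 3495 CPM, again without overlap, with a mean 2.32-fold higher. As the share of all genes that part in this way is not given, nothing is read from a lack of overlap, here or in later comparisons. All 6 ablated mice at 22 °C lay above the control mean of their sex. Averaged over both sexes, the fitted difference was 2.21 ± 0.37 on the log2 scale (SE). In this comparison 19 of 20213 genes (0.094%) were called, but 0 with a term for Cre, 10 with Cre-negative controls, 49 without ablated male 3, 49 from the compared groups alone, 136 with DESeq2 and 400 without the filter. The Mt1 estimate lay between 1.85 and 2.45 under the same and the other alternatives. The mitochondrial share of reads moved with the groups in males, at 26.0% ± 5.62 in controls and 18.6% ± 0.804 in ablated mice (SD, n = 3 each), and its part in the result was not tested.

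Mt2 followed the same order at far fewer reads. Control males at 22 °C had 0, 3 and 12 reads of Mt2, that is 0, 0.148 and 0.512 CPM, and the count of 0 allows up to 0.114 CPM by counting error alone. Ablated males at 22 °C read 5.03, 5.48 and 3.15 CPM, above all 3 controls. Control females read 3.23, 14.6 and 22.2 CPM and ablated females 22.0, 24.5 and 45.0 CPM, where the highest control and the lowest ablated mouse overlap. The fitted difference was 2.78 ± 0.58 on the log2 scale, 1.74 with Cre-negative controls, 3.42 with limma voom and 3.61 without control male 3. Gm45774 had a fitted difference of 0.82 ± 0.90.

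**Figure D2:**
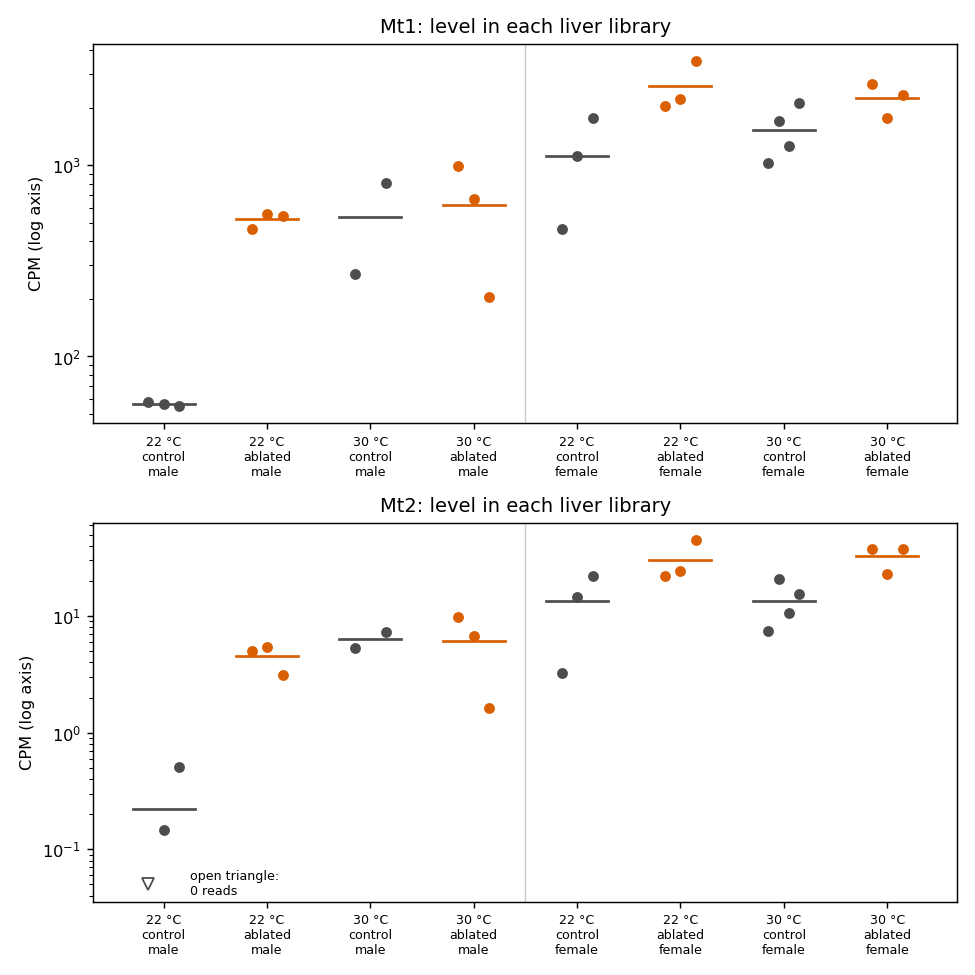
CPM of Mt1 (above) and Mt2 (below) on logarithmic axes in the 8 groups of temperature, ablation and sex. Points are libraries, horizontal lines are group means and the open triangle is the library with 0 reads of Mt2. The 3 control males at 22 °C, at 55.3 to 58.1 CPM of Mt1, lie below all other libraries.

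The transporters differed much less between ablated and control mice at 22 °C. Slc30a10 stood at 61.9, 47.2 and 61.2 CPM in control males and at 30.9, 28.7 and 31.6 CPM in ablated males, with no overlap. In females it stood at 49.0, 49.7 and 54.0 CPM in controls and 47.0, 45.7 and 31.3 CPM in ablated mice. The gap in females was narrow, from 47.0 to 49.0 CPM. The share of all genes that part in this way is not given, so nothing is read from the lack of overlap. All 6 ablated mice lay below the control mean of their sex, and the fitted difference was -0.60 ± 0.17. Slc39a14, the importer of zinc, manganese and non-transferrin iron, differed by -0.20 ± 0.16. Its females did not overlap either, at 234 to 296 CPM in controls and 197 to 211 CPM in ablated mice, while its males did. Slc30a1, which passes zinc out across the plasma membrane, differed by 0.04 ± 0.21, with control males at 15.5, 23.6 and 9.26 CPM and ablated males at 23.9, 21.6 and 22.9 CPM. In females it ran the other way, with controls at 23, 20.6 and 11.5 CPM and ablated mice at 13.1, 13.9 and 14.5 CPM. The difference of the ablation effect between sexes at 22 °C, females minus males, was -0.91 ± 0.43 (edgeR quasi-likelihood test, adjusted p = 0.792) for Slc30a1.

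**Figure D3:**
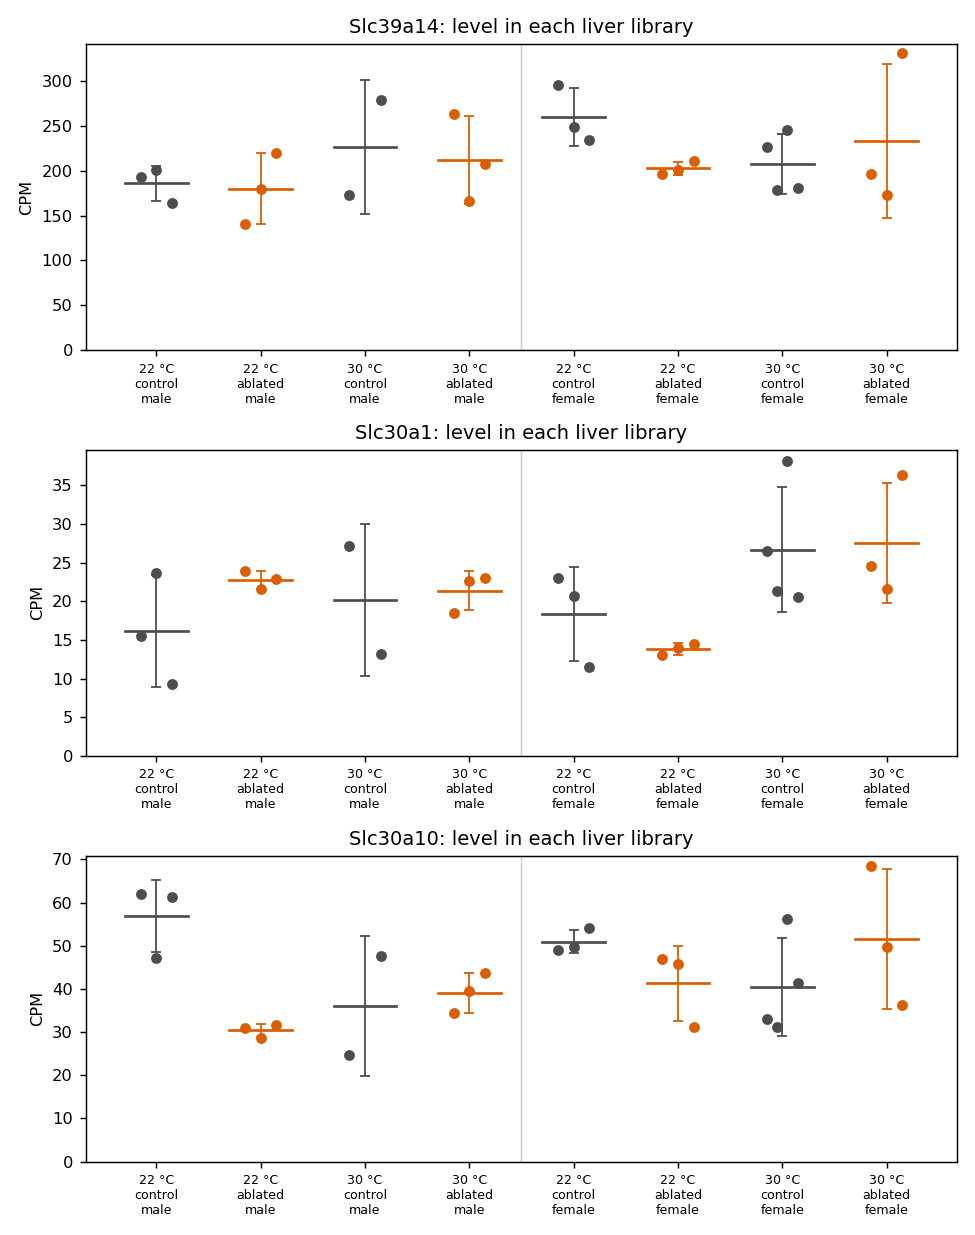
CPM of Slc39a14, Slc30a1 and Slc30a10 in the 8 groups, on axes from 0. Points are libraries, and lines with bars are group mean ± SD over 2 to 4 mice. Slc30a10 lies at 28.7 to 31.6 CPM in ablated males and 47.2 to 61.9 CPM in control males at 22 °C.

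Ablation at 30 °C used other mice than the ablation contrast at 22 °C, although its 6 controls were part of the sex contrast in controls. No gene of the 5 was called there, and of all 20213 genes 0 (0%) were called by edgeR, with 1407 at an unadjusted p under 0.05. Over all genes 47 were called with DESeq2 and 74 without the filter, again with no gene of the 5. Mt1 read 270 and 808 CPM in control males and 989, 668 and 206 CPM in ablated males. The lowest value of each group, 270 and 206 CPM, was a BAC-AT1A-Cre mouse. Control females read 1031, 1707, 1260 and 2103 CPM and ablated females 2647, 1755 and 2322 CPM, so both sexes overlapped. The fitted difference was 0.38 ± 0.37 for Mt1 (adjusted p = 0.898, higher in 5 of 6 mice) and 0.60 ± 0.49 for Mt2 (adjusted p = 0.861, higher in 5 of 6), by the edgeR quasi-likelihood test. The Mt1 value rested on single libraries, at 0.10 without control male 1, 0.13 without ablated male 1, 0.59 without ablated male 3 and 0.88 without control male 2. With Cre-negative controls alone, which leave no 30 °C control male, it was 1.19 for Mt1 and 1.67 for Mt2. No gene of the 5 was called under any of these. Mt2 in females read 7.44, 20.6, 10.7 and 15.6 CPM in controls and 37.9, 22.8 and 37.3 CPM in ablated mice, without overlap, while in males it read 5.36 and 7.36 CPM against 9.90, 6.70 and 1.64 CPM.

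At 30 °C Slc30a10 differed by 0.23 ± 0.17 (adjusted p = 0.834), Slc39a14 by 0.04 ± 0.17 and Slc30a1 by 0.07 ± 0.22 (adjusted p = 1.00 each, edgeR). Without control male 1 these were 0.04 for Slc30a10, -0.10 for Slc39a14 and 0.38 for Slc30a1. The highest Slc39a14 level of all libraries, 332 CPM, was in 30 °C ablated female 3, whose group otherwise read 196 and 173 CPM. That library also had the highest summed neutrophil markers, 45.2 CPM against at most 3.49 CPM elsewhere, and the highest acute phase transcript Saa2, at 184 CPM against at most 85.0 CPM. Without that library the Slc39a14 difference was -0.13 instead of 0.04. Of 19 interleukin-6 and acute phase genes all 19 had positive estimates for ablation at 30 °C and 0 were called, with a median log2 fold change of 0.51 against 0.05 over all genes. The ablation effect at 22 °C minus that at 30 °C, which holds the ablation contrast at 22 °C, was 1.83 ± 0.51 for Mt1, 2.18 ± 0.76 for Mt2 and -0.83 ± 0.24 for Slc30a10. Under the alternatives it ran from 0.65 to 2.10 for Mt1, 0.07 to 3.01 for Mt2 and -1.12 to -0.65 for Slc30a10. The lowest values of Mt1 and Mt2 came with Cre-negative controls alone. That setting leaves no 30 °C control male and takes sex as an additive term. Cre status and sex of the controls therefore cannot be told apart in it.

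Females had more Mt1 and Mt2 than males among ablated mice, which are other animals than the controls in which the sex difference of Mt1 was seen first. The 6 ablated mice at 22 °C were also part of the ablation contrast by which Mt1 was picked. The test among ablated mice is therefore not fully separate from the choice of Mt1. At 22 °C ablated females read 2043 to 3495 CPM of Mt1 and ablated males 463 to 554 CPM, 4.96-fold by the means. At 30 °C they read 1755 to 2647 and 206 to 989 CPM, 3.61-fold. No female overlapped a male at the same temperature for Mt1 or Mt2, from which nothing is read, as the share of all genes that do so is not given. The fitted difference was 2.08 ± 0.37 for Mt1 (adjusted p = 0.00349) and 2.58 ± 0.49 for Mt2 (adjusted p = 0.00696), by the edgeR quasi-likelihood test, each higher in 6 of 6 females. Mt1 and Mt2 are neighbours whose levels move together, so this is not independent evidence. Of the 5 genes 2 were called, both higher, against 453 of 20213 called (2.24%), of which 244 were higher (1.21%).

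The same call held for both genes under every alternative run for the ablated mice, with log2 differences of 1.87 to 2.33 for Mt1 and 2.36 to 2.85 for Mt2. All ablated mice at 22 °C were of 1 line, and those at 30 °C were of mixed lines. Over all genes these alternatives called between 312 and 806. Gm45774 differed by 2.34 ± 0.90 (adjusted p = 0.297). Slc30a10 was 0.42 ± 0.17 higher in females (adjusted p = 0.287), Slc39a14 0.16 ± 0.16 and Slc30a1 -0.18 ± 0.21, and none of these was called. Among controls, as a description, Mt1 was 2.90 ± 0.42 and Mt2 3.50 ± 0.62 higher in females, against 0.30, 0.18 and 0.00 for Slc30a1, Slc39a14 and Slc30a10. Under the alternatives these transporter values ran from 0.10 to 0.61, 0.04 to 0.38 and -0.18 to 0.29. In controls at 22 °C the mean of Mt1 was 19.7-fold higher in females. At 30 °C it was 2.83-fold higher, or 5.64-fold against control male 1 alone and 1.89-fold against control male 2 alone. The sex effect at 22 °C minus that at 30 °C was 2.80 ± 0.73 on the log2 scale, a description with no test, as these values chose Mt1.

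**Figure D4:**
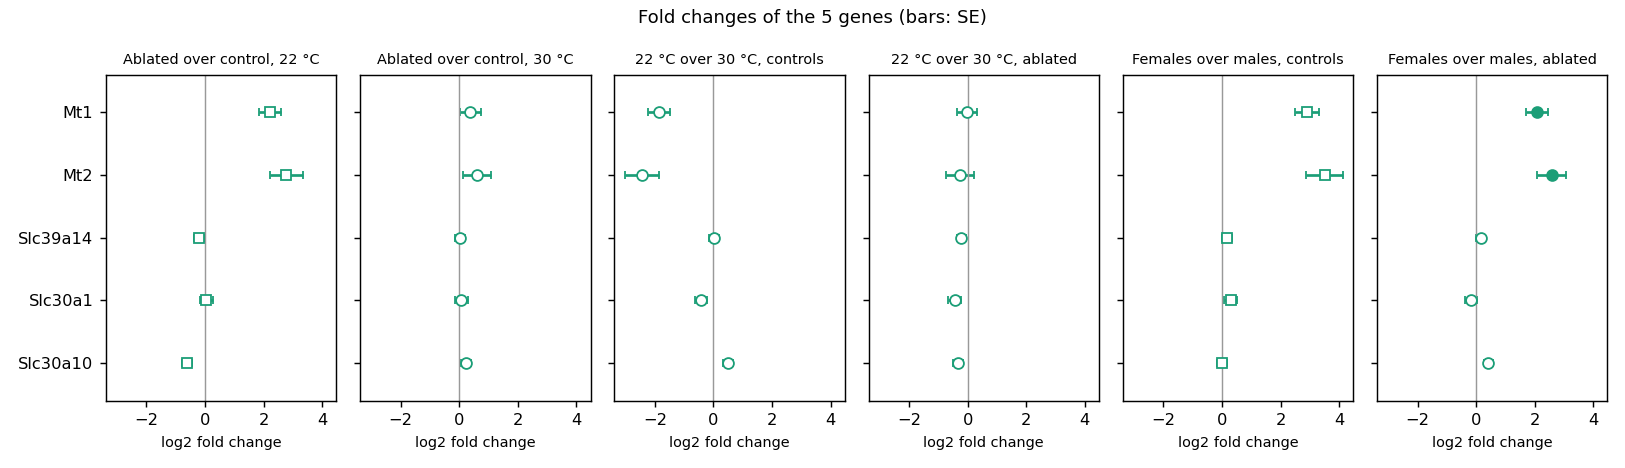
Log2 fold changes of the 5 genes with SE as bars. Squares are comparisons that were used in picking Mt1, circles are other comparisons and filled circles are called ones. Mt1 and Mt2 were called in females over males among ablated mice.

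Housing temperature shares its 22 °C mice, and in controls all its mice, with the contrasts by which Mt1 was picked, so the metallothionein values in controls are a description with no p. In controls Mt1 stood at 22 °C and 30 °C at 56.6 ± 1.39 CPM against 539 ± 380 CPM in males (SD, n = 3 and 2) and at 1115 ± 651 against 1525 ± 476 CPM in females (n = 3 and 4). Males did not overlap and females did. The fitted difference was -1.85 ± 0.37 for Mt1 and -2.44 ± 0.58 for Mt2. With Cre-negative controls alone, in which no 30 °C male remains, it was -0.72 for Mt1 and -0.35 for Mt2, and without control male 2 at 30 °C it was -1.34 for Mt1. Of all 20213 genes 7 (0.0346%) were called, and 1608 without 30 °C control male 2, which leaves only the library that stood apart in its group. In ablated mice Mt1 differed by -0.03 ± 0.36 (adjusted p = 1.00) and Mt2 by -0.26 ± 0.47 (adjusted p = 0.932), and 0 of the 5 were called against 7 of 20213 (0.0346%) and 1977 at an unadjusted p under 0.05.

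Slc30a10 had temperature estimates of opposite sign in controls and ablated mice. At 22 °C all 6 controls lay above the 30 °C mean of their sex (0.49 ± 0.17, adjusted p = 0.260) and all 6 ablated mice below it (-0.34 ± 0.17, adjusted p = 0.510, edgeR). In controls the estimate was 0.30 (adjusted p = 0.868) without 30 °C control male 1 and 0.78 (adjusted p = 0.00966) without 30 °C control male 2, when 1608 genes were called. Slc30a1 had log2 differences, 22 °C over 30 °C, of -0.43 ± 0.22 in controls (adjusted p = 0.423, and -0.12 without 30 °C control male 1) and -0.45 ± 0.21 in ablated mice (adjusted p = 0.495). Ablated females did not overlap between temperatures for Slc30a1, at 13.1, 13.9 and 14.5 CPM at 22 °C and 24.6, 21.5 and 36.3 CPM at 30 °C. Ablated males, control males and control females did overlap. As the share of all genes that part in this way is not given, nothing is read from this lack of overlap in ablated females.

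Within groups Mt1 and Mt2 rose and fell together. Over the 24 libraries, with group means removed, log2 CPM of Mt1 and Mt2 correlated with r = 0.738 (permutation test within groups, p = 0.00033, adjusted p = 0.0033 over 10 pairs) and rho = 0.757 (p = 0.00041, adjusted p = 0.0041). Without the 2 libraries farthest from the median, r was 0.575. With a prior count of 0.5 instead of 2 added before the log, r was 0.598. Mt1 and Slc30a1 gave r = -0.490 (permutation p = 0.0495, adjusted p = 0.247) and rho = -0.445, which did not pass. None of the other 8 pairs passed either. As the measure of likeness, residual correlation over 11641 genes put Espn, Tnxb and Cttnbp2 nearest to Mt1, at r = 0.780, 0.775 and 0.764, with Mt2 in position 12. Itga3, Smg6 and Zswim9 lay nearest to Mt2, Med16, Ppil1 and Socs7 to Slc39a14, Apom, Ap3b1 and Cycs to Slc30a1, and Adcy9, Zfp623 and Atp2b2 to Slc30a10.

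Of 24 other zinc genes listed, 22 were tested. None was called after ablation at 22 °C or 30 °C, for temperature, or in ablated mice by sex, where 0.094%, 0%, 0.0346% for each temperature comparison, and 2.24% of all genes were called, so these counts are near the background. The list had median log2 fold changes of -0.09 at 22 °C and 0.07 at 30 °C against 0.02 and 0.05 over all genes. The lowest p at 22 °C belonged to Slc39a13, a zinc transporter of the secretory pathway, with 0.26 ± 0.14 (adjusted p = 0.641, edgeR), and to Slc39a2, with -0.38 ± 0.22 (adjusted p = 0.665). In the temperature comparison of controls they belonged to Slc39a3, with 0.78 ± 0.19 (adjusted p = 0.125), and Slc30a4. The importer Slc39a5 differed between ablated females and males by 1.75 ± 0.48 (adjusted p = 0.0649) and did not pass. As 1 of 22, Slc30a5, which loads zinc into the secretory pathway, was called lower in control females, by -0.62 ± 0.16 on the log2 scale (adjusted p = 0.0233), where 568 of 20213 genes (2.81%) were called. The MTF1 gene itself was at 5.13 to 12.9 CPM in all libraries and was called in no comparison.

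Of 6 other genes known to respond to MTF1, 0 were called after ablation at either temperature, all 6 having positive estimates at 22 °C (median log2 fold change 0.20) and 3 at 30 °C (median 0.08). Over all genes 0.094% were called at 22 °C and 0% at 30 °C, so these counts of 0 are near the background. By sex, 1 of the 6 was called among ablated mice and 2 among controls, against 2.24% and 2.81% of all genes. Among ablated mice 2 estimates were higher in females and 4 lower (median -0.21). Among controls 5 were higher and 1 lower (median 0.59). Selenow, a selenoprotein gene, was higher in females among ablated mice by 0.61 ± 0.15 (adjusted p = 0.0263) and among controls by 0.74 ± 0.16 (adjusted p = 0.00634, edgeR). Ndrg1, of the same 6, was higher in females among controls by 1.30 ± 0.30 (adjusted p = 0.0107, edgeR). Itih4, an acute phase gene, was higher in females among ablated mice by 0.83 ± 0.17 (adjusted p = 0.00379) and among controls by 0.78 ± 0.18 (adjusted p = 0.00908, edgeR). Of 12 glucocorticoid-responsive genes 0 were called after ablation, with medians of -0.32 at 22 °C and -0.18 at 30 °C. This is again near the background of 0.094% and 0%. Between ablated females and males 0 of the 12 were called, against 2.24% of all genes, with 5 estimates higher in females and 7 lower (median -0.23). Among controls 9 estimates were higher in females and 3 lower (median 0.51). Between control females and males 2 of the 12 were called, both higher in females, against 568 of 20213 genes (2.81%). These were Sgk1, with 0.86 ± 0.21 (adjusted p = 0.0130), and Fkbp5, with 1.09 ± 0.29 (adjusted p = 0.0463, edgeR). In the interleukin-6 list 1 of 19 was called after ablation at 22 °C, Il1rn, which encodes the interleukin-1 receptor antagonist, with 1.95 ± 0.35 (adjusted p = 0.00851, edgeR). Over all genes 19 of 20213 (0.094%) were called there. Il1rn was also higher in females among controls, by 2.03 ± 0.37 (adjusted p = 0.000949, edgeR). By sex, 2 of the 19 were called among controls and 1 among ablated mice, against 2.81% and 2.24% of all genes. None of 18 metal-handling partner genes was called in any comparison, where 0% to 2.81% of all genes were called.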

How the data were processed

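The data are 24 liver RNA-seq libraries. The authors deposited raw counts per gene, FPKM values, signal values (counts divided by a size factor) and gene lengths (other) in 3 tables of 12 libraries. Per the submitters' processing notes, CASAVA, HISAT2 and DESeq2 were used with GRCm39, and no versions, counter, annotation or strandedness are recorded in the labels. The tables were joined to 27802 genes, 22794 in all 3, and 40326 missing counts were set to 0. No count differed between tables (0 differences). The deposited FPKM values were used for levels per length and the ratio of Mt1 to Mt2. The signal values were read only to check units.

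Counts were tested with edgeR 4.0.16 (TMM, filterByExpr, robust quasi-likelihood test, R 4.3.3) on 8 group means with 16 residual degrees of freedom, Benjamini-Hochberg adjusted over 20213 genes, two-sided, called at an adjusted p under 0.05. Effects average both sexes, and SE was taken as the size of the effect divided by the root of F. DESeq2 1.42.0, limma voom 3.58.1, other size factors, no filter, Cre, line, a replicate block and leaving out each library were tried. Same-numbered libraries of different groups did not deviate together (77 pairs, r -0.14 to 0.096). Depth was 21691653 to 34851108 reads. Replicates are separate mice, and intervals by counting cover counting error only. The members and lists were chosen with earlier results of these data known. Named genes were the 5 members, the called zinc genes or else those of lowest p, up to 4 called genes of each other list, and the 3 nearest genes by correlation. The temperature comparison in controls and its difference between sexes were planned as tests, but for Mt1 and Mt2 they are given as description, since values that chose Mt1 enter them.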

Additional observations from a re-analysis of the deposited data

Results flagged for a closer look

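Slc30a10 had temperature estimates of opposite sign in control and ablated mice. All 6 controls at 22 °C lay above, and all 6 ablated mice at 22 °C below, the mean of their sex at 30 °C. Mice at 30 °C overlapped those at 22 °C in control males, control females and ablated females. The effects were 0.49 ± 0.17 and -0.34 ± 0.17 on the log2 scale, which differ by -0.83 ± 0.24. This is the same contrast as the ablation effect at 22 °C minus that at 30 °C, in which 0 of 20213 genes were called (edgeR, 1414 at an unadjusted p under 0.05).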

How the results depend on the processing

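Log2 fold changes of Mt1 kept their direction under every alternative run for ablation at each temperature, sex and temperature in controls, but not for temperature in ablated mice, where limma voom gave 0.10 and single-library omissions -0.23 to 0.23, nor for the difference between sexes at 30 °C, where omissions gave -0.65 to 0.95. For temperature in controls 2 of the 5 genes were called without the filter (273 of all genes), 2 with DESeq2 (268) and 0 to 3 when single libraries were left out (0 to 1608), against 0 (7). The difference of ablation between sexes at 22 °C gave 2 without the filter (249 of all genes), and the difference of sex between temperatures in controls gave 2 without the filter (77) and 2 with DESeq2 (85), so calls rose over all genes. Values that chose Mt1 enter these comparisons, and nothing is read from their counts. Zinc list counts were 1 and 1 for temperature in controls (no filter, DESeq2; 0 to 2 on omission), 3, 3, 0 and 0 for sex in controls (no filter, DESeq2, voom, compared groups only; 0 to 2), 1 each for sex in ablated mice under the same 4, 2 between sexes at 22 °C and 1 for sex between temperatures without the filter (0 to 2 on omission), and 0 to 1 on omission for ablation at 30 °C, its difference between temperatures and between sexes at 30 °C. By raw counts the median ratio of Mt1 to Mt2 was 93.0. The causes were not tested.

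Small estimates changed sign. For ablation at 30 °C Slc39a14 gave -0.032 with the replicate block and -0.034 in Ai39 x BAC-AT1A-Cre mice (omissions -0.13 to 0.24), and Slc30a1 -0.27 with Cre-negative controls (-0.14 to 0.38). For temperature in controls Slc39a14 gave -0.032 with the block and -0.022 with a Cre term (-0.13 to 0.22), and for ablated mice Mt2 gave -0.48 to 0.010 on omission. Sex in ablated mice gave -0.016 to 0.25 for Slc39a14. Between sexes at 30 °C omissions gave -0.64 to 0.38 for Slc30a1, -0.33 to 0.64 for Slc30a10 and -0.13 to 0.58 for Slc39a14. Sex between temperatures gave -0.82 to 0.21 for Slc30a1 and -0.88 to 0.085 for Slc30a10. The correlation of Slc39a14 and Slc30a10 was 0.19 without 2 libraries. The replicate numbers did not pair the mice; with the replicate block the sex difference in ablated mice was 2.06 for Mt1 (adjusted p = 0.00754) and 2.53 for Mt2 (adjusted p = 0.0230, edgeR). Counts over all genes rested on single libraries: without 30 °C control male 2, 807 genes were called for ablation at 30 °C and 1608 for temperature in controls. Mt2 rests on few reads in control males at 22 °C, with 0 to 12 per library.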
